A study of Mus musculus with 35 samples.

Results

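Lgr5-EGFP sorted crypt cells were examined for how they differ among themselves. The cells were all wells of both plates of this sort that held at least 1500 counts of genes, which left 159 of 192 wells (75 in plate 1 and 84 in plate 2), out of 1209 wells kept by the same rule in the whole series. The mice were of the C57BL/6 background with the Lgr5-EGFP genotype. Crypts were freshly isolated from small intestine and dissociated, with no culture and no treatment, and EGFP-positive single cells were sorted into 96-well plates. The sources used here do not give the age, the number of animals, the construct of the reporter allele or whether the plates came from different mice, so the spread between plates may be technical, and the reporter's own transcript was not analysed here. CEL-seq, which tags the polyadenylated RNA of each well with its own barcode, gave the counts, and distinct 4-base molecular barcodes were counted per gene. A level is a number of counts per 10000 gene counts of a well.

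Lgr5 encodes a receptor for R-spondins, secreted proteins that strengthen Wnt signalling, and it marks the columnar stem cells at the crypt base. These cells divide often and sit between Paneth cells, which store lysozyme and alpha-defensins in granules. Their descendants become absorptive enterocytes or secretory cells, namely Paneth, goblet, enteroendocrine and tuft cells, and loss of Notch signalling with gain of Atoh1 marks the secretory branch. A sort on Lgr5-EGFP can hold stem cells in any phase of the cycle, early descendants that still carry EGFP, and neighbours that came along with a stem cell.

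Kept wells held a median of 9543 counts in plate 1 (2119 to 65337) and 13131.5 in plate 2 (1599 to 42456). The 33 wells that were not kept held 13250 counts in all, at most 1409 each. Both plates used the same 96 well barcodes, yet the mean correlation was 0.001 for same-numbered wells and 0.0003 for differently numbered ones, and no kept wells were identical. Markers of immune and stromal cells were near 0 in both plates, the summed level of either list reaching at most 3.79 in any well.

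The stem cell label matched some stem cell markers, while others had medians of 0 or no count. Clca4, which encodes a protein of the chloride channel accessory family, was counted in 100% of the wells of plate 1 and 97.6% of plate 2, at a median level of 14.8 (highest 33.5) and 9.70 (highest 29.4). Slc12a2, the sodium-potassium-chloride cotransporter, had medians of 8.51 and 6.06 and was counted in 97.3% and 98.8% of wells. Smoc2, a secreted matrix protein of the crypt base, had medians of 3.00 and 2.32 and was counted in 89.3% and 90.5%. Lgr5 (chr10:115450311-115587780, minus strand, GRCm38) was low, with medians of 1.86 and 1.13 and highest wells of 8.02 and 11.3, and no Lgr5 was counted in 19 wells of plate 1 and 13 of plate 2. Each of these genes had a lower median in plate 2, and their ranges over wells overlapped almost whole between the plates. At these levels a well of median depth holds a handful of Lgr5 molecules or none, so a 0 was not read as absence of expression. The 33 wells not kept, summed, held Clca4 at 14.3, Slc12a2 at 9.06, Smoc2 at 4.53 and Lgr5 at 2.26 per 10000. A count alone was thus not read as expression by that well's cell, and its source was not tested. Of 29 stem list genes, 24 in plate 1 and 25 in plate 2 were counted in at least 25% of wells. Olfm4 had medians of 0.469 and 0. Tnfrsf19, Cdk6 and Gkn3 were among those with medians of 0 in both plates, and Msi1 and Notum had no count.

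**Figure D1:**
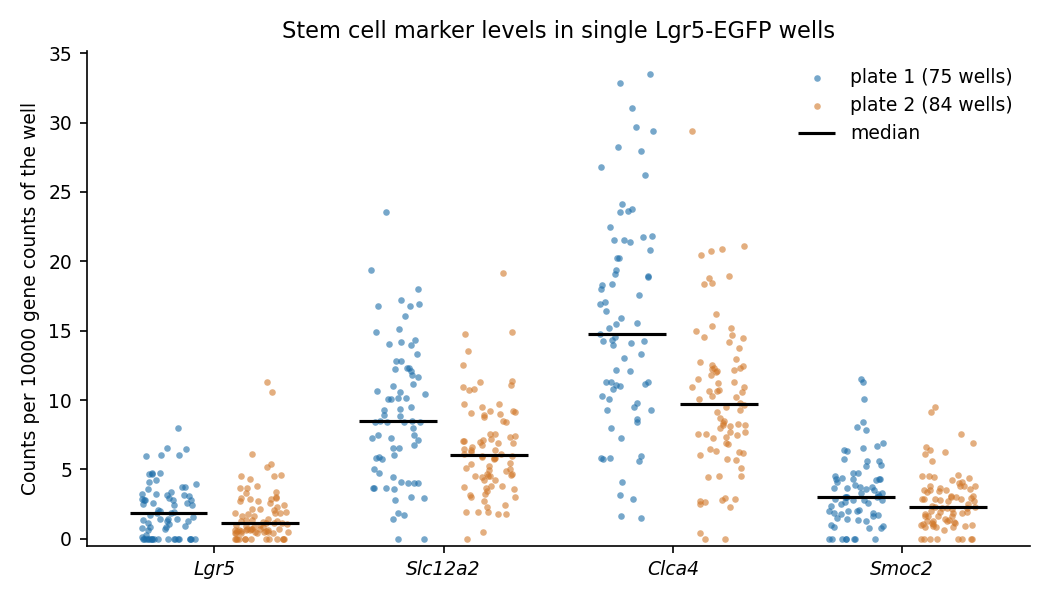
Level of 4 stem cell genes in every kept well (y axis, counts per 10000 gene counts of the well), with plate 1 in blue, plate 2 in orange and black bars at the medians. Lgr5 sits near the floor at medians of 1.86 and 1.13, while Clca4 lies at 14.8 and 9.70.

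Across wells, genes followed Lgr5 only weakly, and many did so in opposite directions in the plates. Spearman's rho with Lgr5 was computed in each plate for the 6531 genes counted in at least 25% of the wells of both, as a description over wells that share plate, library and depth. No gene went above 0.462 in plate 1 or 0.414 in plate 2. Of the 6531 genes, 39 reached 0.2 and 19 reached -0.2 in both plates, 3049 had opposite signs, and across genes the rho values of the plates had a correlation of 0.117. Genes are not independent replicates, and with every well thinned to 3000 counts the numbers were 16 and 8.

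The genes closest to Lgr5 by the rho nearer 0 of the plates were Gm5485 (0.389 and 0.377), Limk2, a kinase of actin turnover (0.331 and 0.334), and Prom1, the membrane protein prominin 1 of crypt base cells (0.320 and 0.369). Rgmb, a coreceptor for bone morphogenetic proteins, had 0.308 and 0.280, and Pdgfa, a growth factor that signals to mesenchyme, had 0.292 and 0.320. G3bp2 and Nfib, and the ribosomal protein genes Rpl21, Rps29, Rps23, Rpl10 and Rpl12, made up the rest of the first 12. On the negative side stood Sart1, Mdh2, E2f2, Dmbt1, 1700021F05Rik, D1Ertd622e, Slc25a28 and Manf. Dmbt1, a secreted scavenger receptor of mucosal surfaces, had -0.267 and -0.343. After thinning, no value nearer 0 of the plates went, among these 20 genes, above 0.186 (Nfib) or below -0.135 (Dmbt1), and across all 6531 genes the rho values of the plates had a correlation of 0.011. The sign was still shared by the plates for 14 of the 20, not for Prom1, Rpl10, Sart1, Mdh2, E2f2 and Slc25a28.

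Most stem list genes were positively related to Lgr5. Of its 23 members with a value, 19 had a positive rho in both plates and 1 a negative one, against 1746 positive and 1736 negative of all 6531 genes. The median rho of the list was 0.206 in plate 1 and 0.125 in plate 2. Clca4 had 0.462 and 0.241, Slc12a2 0.240 and 0.329, Axin2, a Wnt target, 0.237 and 0.209, and Smoc2 0.206 and 0.085. Olfm4, a secreted glycoprotein of stem cells, reached 0.426 in plate 1 and 0.096 in plate 2, and Ascl2, the transcription factor that Wnt induces in stem cells, had 0.185 and -0.125. Ribosomal protein genes were positive in both plates for 58 of 85 members. Among the 7 MHC class II genes with a value, which stem cells can express to present antigen, 5 were positive in both plates, with medians of 0.071 and 0.220. Of 38 members of the G2/M list 17 were negative in both plates and 2 positive, with medians of -0.030 and -0.056, so Lgr5 level and mitotic transcripts had almost no common order.

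**Figure D2:**
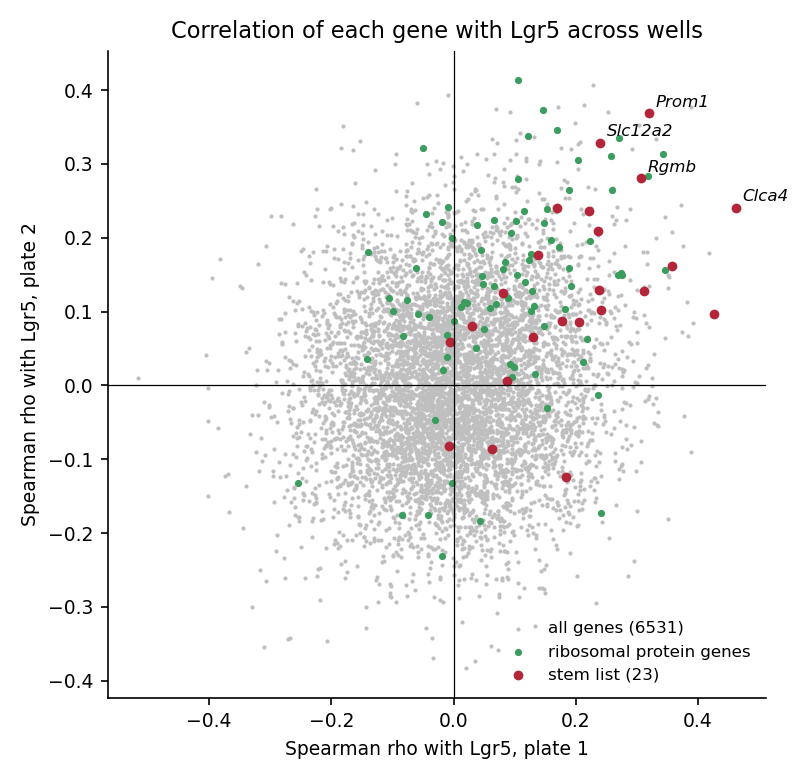
Spearman's rho of each gene with Lgr5 across the wells of plate 1 (x axis) and plate 2 (y axis), for 6531 genes (grey), ribosomal protein genes (green) and 23 stem list genes (red). The grey cloud is centred on 0 in both plates, and 19 of the 23 red points lie in the upper right, where both values are positive.

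To test which genes moved with Lgr5, each plate's wells were divided at their median Lgr5 level into Lgr5-upper wells (37 and 42) and Lgr5-lower wells (38 and 42). In plate 2 the Lgr5-lower wells were deeper, with a median of 16082.5 against 10715 counts, and 113.7 against 80.3 counts per spike-in count, while in plate 1 they had 8176 against 9726 counts, and 92.6 against 95.3 per spike-in count. The part of depth in the differences was not tested. Counts were summed per plate and class, and the 4 sums were compared with edgeR's quasi-likelihood test with the plate as a block. Of 8017 genes tested, 27 were higher (0.337%) and 38 lower (0.474%) in the Lgr5-upper wells at a false discovery rate of 0.05. Lgr5 chose the classes and was not tested. Its mean level was 3.73 against 0.545 in plate 1 and 3.11 against 0.456 in plate 2.

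Of the 24 stem list genes tested 4 were higher (Olfm4, Clca4, Prom1 and Rgmb), against 0.337% of all genes, and none lower. Without regard to the test 19 were higher in both plates, against 2410 of the 8017 genes. The list's median log2 fold change was 0.43 against 0.00 for all genes. Clca4 had median levels of 18.9 against 11.2 in plate 1 and 10.5 against 8.38 in plate 2, and its ranges over wells overlapped (log2 fold change 0.57, SE 0.12, edgeR adjusted p = 0.0027). Prom1 had medians of 4.69 against 2.83 and 3.30 against 2.02 (log2 fold change 0.76, SE 0.17, adjusted p = 0.00575). Slc12a2 had medians of 10.2 against 7.63 and 7.04 against 4.93 and did not pass the test (log2 fold change 0.48, SE 0.14, adjusted p = 0.0893). The difference of Smoc2 was also not called, at a log2 fold change of 0.43 with an SE of 0.16 (adjusted p = 0.307). All 7 MHC class II genes tested had higher sums in the Lgr5-upper wells of both plates, with a median log2 fold change of 0.50, and none passed the test.

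By fold among the higher genes at 50 CPM or more, Gm5485 and Pdgfa came before Olfm4, followed by Sp5, Klf6, Mll5, Cd177, Bex1, Tgif1 and Nav1. Pdgfa was counted in 30 of 37 Lgr5-upper and 29 of 38 Lgr5-lower wells of plate 1 and in 37 and 30 wells of 42 each in plate 2, with CPM of 252 against 122 and 220 against 80.7 (log2 fold change 1.25, SE 0.17, adjusted p = 6.12e-07). Gm5485 was counted in 28 against 17 wells of plate 1 and 27 against 14 of plate 2 (log2 fold change 1.49, SE 0.22, adjusted p = 3.82e-06). Sp5, a transcription factor gene that Wnt signalling induces, had CPM of 145 against 45.2 and 121 against 73.1 (log2 fold change 1.12, SE 0.23).

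Dmbt1 was lower, and its difference was called under all 8 alternative settings as well. Its median level was 1.19 in Lgr5-upper and 3.80 in Lgr5-lower wells of plate 1, and 1.89 and 7.64 in plate 2, with single wells up to 56.3. The classes overlapped, since each held wells at 0 and the highest Lgr5-upper wells reached 44.2 and 29.99. The log2 fold change was -1.15 (SE 0.11, edgeR adjusted p = 4.91e-11), and the adjusted p over the alternatives lay between 4.865e-37 and 0.0186. Across wells Dmbt1 was also related to the total count (rho 0.368 and 0.489) and to the summed S phase genes (0.280 and 0.432), and its relation with Lgr5 given the total count had -0.288 as the value nearer 0.

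The lower genes, 0.474% of all tested, also held 13 of 22 Paneth genes, 5 of 12 goblet genes and the enteroendocrine genes Chgb and Tac1. Without regard to the test, 7 of the 22 Paneth genes and 7 of the 12 goblet genes were lower in both plates, against 1997 of the 8017 genes. Lgr5-upper wells held 1 well high for Lyz1, Muc2 or Chgb in each plate, against 3 and 6 among the Lgr5-lower wells, and a few wells carried most of each gene. Of the Chgb counts in the Lgr5-lower wells of plate 2, 98.0% came from 1 well. Lyz1 had CPM of 104 against 4252 in plate 2 but 1882 against 1258 in plate 1, so its direction was not shared by the plates (log2 fold change -2.32, SE 0.56, adjusted p = 0.0183).

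These calls depended on few wells and on the model. Without the wells high for Lyz1, Muc2 or Chgb no gene was higher (317 genes at an unadjusted p under 0.05) and Dmbt1 alone was lower, whereas leaving out the wells high for the tuft or enteroendocrine lists as well gave 37 higher, 19 of them among the 27, and 13 lower. DESeq2 called 0 higher (17 unadjusted) and 4 lower, and without the plate block 1 and 3 were called. The stem list's median log2 fold change was 0.40 in the first and 0.43 in the second of these sets of wells, in which 0 and 5 of its 24 genes were called higher.

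**Figure D3:**
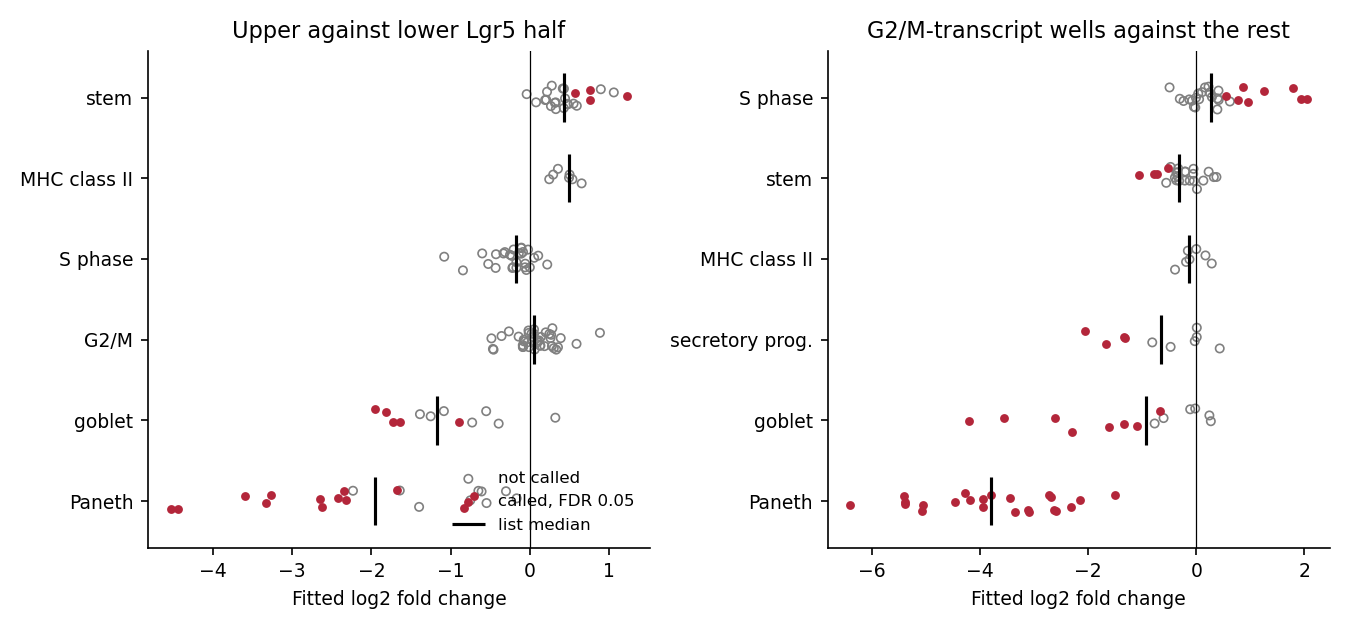
Fitted log2 fold change (x axis) of the members of 6 gene lists (rows) between Lgr5-upper and Lgr5-lower wells (left) and between wells with and without G2/M transcripts (right). Red points passed a false discovery rate of 0.05, open points did not, and bars mark list medians, such as 0.43 for the stem list on the left and -3.80 for the Paneth list on the right.

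By a limit of 3 genes most wells carried transcripts of the late cell cycle, against a mean of 36.1% by a limit of 12. After thinning each well to 3000 counts, which left out 4 wells of plate 1 and 8 of plate 2, at least 3 of 40 G2/M genes were counted in 52 of 71 wells of plate 1 (73.2%, exact 95% interval 61.4 to 83.1%) and 58 of 76 of plate 2 (76.3%, 65.2 to 85.3%), a mean of 74.8% ± 2.18 (SD, n = 2 plates). Such intervals cover counting error only. Without thinning the same rule took 96.0% and 94.0% of the wells, and Mki67, the proliferation antigen Ki-67, was counted in 64.0% and 66.7%.

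The number of G2/M genes per well ran from 0 to 27 in plate 1 and to 26 in plate 2, with medians of 6 and 6.5. In plate 2 44 wells had 0 to 8 genes, 7 had 9 to 14 and 25 had 15 or more, so that few lay between. In plate 1 the numbers were 39, 13 and 19, and the range between was less empty. Wells with 12 or more genes, a limit set after this distribution had been seen, made up 38.0% of plate 1 (27 wells) and 34.2% of plate 2 (26 wells), a mean of 36.1% ± 2.70 (SD, n = 2). The median summed level of the G2/M list was 105 in these wells of plate 1 and 111 in plate 2, against 9.70 and 10.9 in the others. The 3-gene rule therefore also took wells with few mitotic transcripts, with 6 and 2 wells exactly at its limit and 8 in each plate just below it.

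S phase genes followed another order. Their summed level ran from 6.43 to 73.95 in plate 1 and from 0 to 95.1 in plate 2, and its rho with the G2/M sum was 0.161 and -0.032. Wells with 12 or more G2/M genes had a median S phase sum of 29.4 and 23.2, against 32.9 and 32.4 in the others. Both classes had similar depth: wells with 12 or more genes had a median of 10413 and 13932 counts and the others 9787.5 and 14412.

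**Figure D4:**
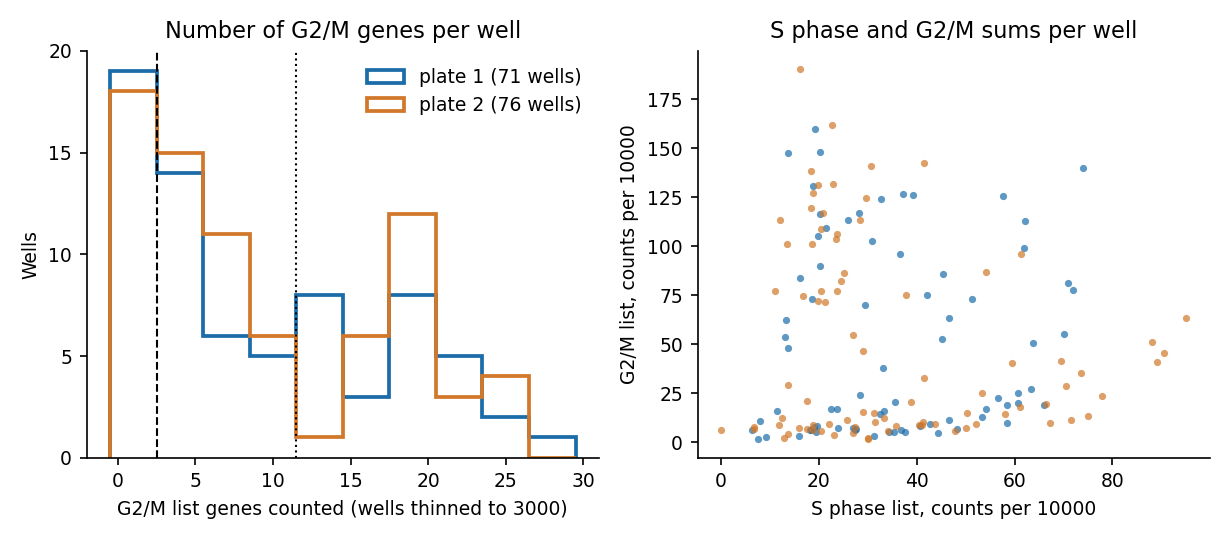
Left, number of wells (y axis) by the number of 40 G2/M genes counted after thinning to 3000 (x axis), in plate 1 (blue, 71 wells) and plate 2 (orange, 76 wells), with the limits of 3 (dashed) and 12 genes (dotted). Right, summed level of the G2/M list against that of the S phase list in every kept well, with little common order (rho 0.161 in plate 1 and -0.032 in plate 2).

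Wells with at least 3 G2/M genes were compared with the other wells in the same kind of fit, the 40 list genes having chosen the classes and being left out. Of 7846 genes tested, 160 were higher (2.04%) and 177 lower (2.26%). The 10 higher genes of largest fold at 50 CPM or more were Spag5, Kif4, Zwilch, Iqgap3, Spc25, Hist1h2ao, Prc1, Kif15, Racgap1 and Melk. Racgap1, which acts in the contractile ring, was counted in 32 of 52 wells of the class and 2 of 19 others in plate 1. In plate 2 it was counted in 32 of 58 and 2 of 18. Its CPM was 118 against 9.56 in plate 1 and 127 against 7.13 in plate 2. Spag5, a spindle protein gene, and Kif4, a chromosome-bound kinesin gene, had no count in any of the 37 other wells and were counted in 28 and 32, and in 23 and 28, wells of the class. In the other 7 the CPM of the other wells was at most 7.13. All 10 passed the filter on low counts through that class alone, so no fold is given for them. Abundant genes changed less: Tubb5 had CPM of 917 against 349 and 823 against 392 (log2 fold change 1.22), and H2afz, a histone variant gene, 1080 against 469 and 953 against 546 (log2 fold change 1.00).

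Promoter sequence bears on these genes, since many mitotic genes are known to carry a CHR element, bound by the MuvB complex, beside CCAAT boxes bound by NF-Y. RefSeq promoter windows (GRCm38.p6, 250 bases before to 50 after a start, the first window listed per gene) were found for 132 of the 160 higher genes and searched on both strands for TTTGAA and for CCAAT, motifs that can share no more than an end letter. TTTGAA was in 40.9% of the windows of the higher genes, 12.1% of those of the lower genes (140 matched), 11.8% of those of all 6345 matched genes tested and 18.1% of all 27025 windows. CCAAT was in 59.8%, 46.4%, 39.2% and 37.9%, and both were in 29.5%, 5.71%, 4.96% and 7.12%. For the list that chose the class the share with TTTGAA was 73.0% of 37 windows, and for the S phase list 12.5% of 24. A match is a description of letters, not a binding site. The stretches below run 5′ to 3′ along the gene's strand with matches on either strand in capitals. They are shown because they hold both motifs upstream of the start within a stretch of at most 150 bases. The first 4 are the most abundant such genes among the higher genes, and the last 2 are from the G2/M list, with the genes of a single chromosome not considered.
Nucks1: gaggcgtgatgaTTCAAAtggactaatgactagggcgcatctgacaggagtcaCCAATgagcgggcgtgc
Kpna2: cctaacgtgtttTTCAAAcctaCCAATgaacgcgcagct
Bub3: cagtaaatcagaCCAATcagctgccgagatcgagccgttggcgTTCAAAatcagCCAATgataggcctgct
Smc2: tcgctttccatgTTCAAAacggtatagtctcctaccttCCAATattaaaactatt
Mki67: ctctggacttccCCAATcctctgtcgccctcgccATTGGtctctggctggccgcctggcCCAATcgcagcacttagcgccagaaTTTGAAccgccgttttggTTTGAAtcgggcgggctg
Kif11: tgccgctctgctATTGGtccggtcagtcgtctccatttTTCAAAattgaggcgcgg
They lie at chr1:131910387-131910456 (plus strand) for Nucks1, chr11:106999534-106999572 (minus) for Kpna2, chr7:131560284-131560354 (plus) for Bub3, chr4:52439064-52439118 (plus) for Smc2, chr7:135716460-135716579 (minus) for Mki67 and chr19:37376325-37376380 (plus) for Kif11. In the minus-strand stretch of Mki67 the motif TTTGAA occurs 2 times and CCAAT 3 times in 120 bases. Kpna2, an importin gene, had CPM of 236 against 158 and 253 against 107 (log2 fold change 0.92, SE 0.19), and Smc2, a condensin gene, 140 against 23.9 and 127 against 28.5 (log2 fold change 2.31, SE 0.33). Bub3, of the spindle checkpoint, had 175 against 57.4 and 179 against 114 (log2 fold change 0.99), and Nucks1, a chromatin protein gene, 302 against 158 and 252 against 189 (log2 fold change 0.65).

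Of 28 S phase genes 8 were higher in the class (Pcna, Rrm1, Rrm2, Tyms, Gins2, Uhrf1, Cdc45 and Clspn) and none lower. Of all genes tested 2.04% were higher. Rrm1, a subunit of ribonucleotide reductase, had CPM of 214 against 95.6 and 195 against 111 (log2 fold change 0.96, SE 0.21). With the limit of 12 genes, 200 of 7741 genes were higher (2.58%) and 174 lower (2.25%). Of 29 S phase genes 1 was higher (Rrm1) and 8 were lower. The lower ones were Cdc6 and Cdt1, which load the replication helicase, its subunits Mcm2, Mcm3, Mcm4, Mcm5 and Mcm6, and the glycosylase gene Ung. Without the Lyz1-, Muc2- or Chgb-high wells, 3 S phase genes were higher by the 3-gene rule (Rrm1, Rrm2 and Uhrf1), against 1.56% of all genes. At the limit of 12, Mcm6 had CPM of 201 against 293 in plate 1 and 96.6 against 310 in plate 2 (log2 fold change -1.06, SE 0.19, edgeR adjusted p = 7.19e-07).

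Some stem cell genes were lower in wells with G2/M transcripts by the 3-gene rule. Of 25 tested 4 were lower there (Rnf43, Prom1, Soat1 and Gkn3) and none higher, beside 2.26% lower of all genes, and with the limit of 12 genes 2 were lower (Soat1 and Gkn3). Without regard to the test 11 were lower and 5 higher in both plates, and the list's median log2 fold change was -0.32 against -0.0036 for all genes, but 0.01 with the limit of 12. DESeq2, the fit with no low-count filter and the fit with no plate block each called none of the list. Rnf43, a ligase that removes Wnt receptors, had CPM of 96.2 against 187 and 125 against 185 (log2 fold change -0.73, SE 0.20, adjusted p = 0.00784). Lgr5 had mean levels of 2.08 ± 2.04 against 2.41 ± 1.69 in plate 1 and 1.58 ± 1.43 against 1.55 ± 1.46 in plate 2 (SD over wells), and it did not pass the test (log2 fold change -0.37, SE 0.19, adjusted p = 0.393). Slc12a2, Clca4 and Smoc2 did not pass either, with log2 fold changes of -0.32, -0.05 and -0.35. Slc12a2 was lower without the wells high for Lyz1, Muc2 or Chgb (log2 fold change -0.43, adjusted p = 0.0143), and Smoc2 with every well thinned to 3000 (-1.004, adjusted p = 0.0385). Immediate early and heat shock genes, which dissociation can raise, were lower for 5 of 20 (Junb, Jund, Ier3, Zfp36 and Btg2). Without the wells high for Lyz1, Muc2 or Chgb 2 of 17 were lower (Btg2 and Zfp36). With no low-count filter or no plate block 1 was lower (Btg2), and with DESeq2 or thinning none. The limit of 5 genes gave none lower and Klf6 higher, and the limit of 12 gave 5 of 18 lower and Klf6 higher.

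Secretory genes were lower in wells with G2/M transcripts, against 2.26% lower of all 7846 genes tested. All 23 Paneth genes tested, 8 of 14 goblet genes and 4 of 10 secretory progenitor and Notch genes (Atoh1, Gfi1, Cbfa2t3 and Spdef) were called lower. The class held 4 wells high for Lyz1, Muc2 or Chgb among 110, the other wells 7 among 37. Mmp7, the protease that activates alpha-defensins, had CPM of 55.4 against 1832 and 104 against 842 (log2 fold change -3.94, SE 0.18). Atoh1 had 27.7 against 153 in plate 1 and 21.01 against 24.97 in plate 2 (log2 fold change -1.67, SE 0.38, adjusted p = 0.000461). No well with 12 or more G2/M genes was high for Lyz1, Muc2 or Chgb, against 4 of 44 and 7 of 50 of the other wells. Leaving out all wells high for Lyz1, Muc2 or Chgb, 3 of 15 Paneth genes (Cd24a, Guca2a and Mmp7) and 2 of 8 goblet genes (Spink4 and Tff3) were lower. Of the secretory progenitor and Notch list 1 of 7 genes tested was then lower (Dll1), and none of the 4 named above was called. The median log2 fold change of the Paneth list, -3.80 on all wells, was then 0.19. In that fit 115 genes were higher (1.56%) and 47 lower (0.636%), and DESeq2 called 5 and 26 on all wells. On all wells DESeq2, the fit with no low-count filter and the fit with no plate block each called none of the secretory progenitor and Notch list.

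A few wells in each plate held secretory transcripts at levels far from the rest. Of the genes looked for, Lyz1 lies at chr10:117287797-117292868, Muc2 at chr7:141690340-141754693, Chgb at chr2:132781278-132795079 and Reg4 at chr3:98222156-98236748 (GRCm38). At 10 or more per 10000 with at least 3 counts, Lyz1, the lysozyme of Paneth cells, was high in 3 of 75 wells of plate 1 (4.00%, exact 95% interval 0.833 to 11.2%) and 5 of 84 of plate 2 (5.95%, 1.96 to 13.3%). Muc2, the gel-forming mucin of goblet cells, was high in 4 (5.33%, 1.47 to 13.1%) and 5 wells (5.95%). Reg4, a lectin of secretory cells, was high in 2 (2.67%, 0.325 to 9.30%) and 3 wells (3.57%, 0.743 to 10.1%). Chgb, the granule protein chromogranin B of enteroendocrine cells, was high in 0 of 75 wells of plate 1, which allows a share of up to 4.00% by 3 counts (exact 95% interval 0 to 4.80%), and in 1 of 84 of plate 2 (1.19%, 0.0301 to 6.46%). In all 4 wells of plate 1 and 7 of plate 2 were high for Lyz1, Muc2 or Chgb, and both Reg4 and Muc2 were high in all 5 Reg4-high wells.

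Lyz1 stood at 18.9, 239 and 255 in the Lyz1-high wells of plate 1 and at 132, 211, 213, 381 and 470 in those of plate 2. The wells high for none of the genes had at most 9.44 and 7.04. Of 8 Lyz1-high wells 7 were also Muc2-high, which is 87.5% of the Lyz1-high and 77.8% of the 9 Muc2-high wells. Muc2 ran from 5.81 to 105 in the 8 Lyz1-high wells. In well 75 of plate 1, for example, Lyz1 was at 239, Muc2 at 103, Reg4 at 206 and Spink4, a goblet gene, at 399.5, and in well 95 Lyz1 was at 255, Muc2 at 42.7 and Reg4 at 71.2. Ang4, an antimicrobial ribonuclease of Paneth cells, split the Lyz1-high wells: it was at 59.8, 119, 130 and 21.01 in 4 wells of plate 2 and under 1 in the 3 of plate 1 and the remaining 1 of plate 2.

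Both Muc2-high wells that were not Lyz1-high also held other goblet genes at high levels. Well 76 of plate 1 had the most counts of any well (65337), with Muc2 at 58.9, Tff3 at 74.7, Agr2 at 75.8 and Lyz1 at 0.153. Well 59 of plate 2 had Muc2 at 56.3, Tff3 at 71.7, Agr2 at 68.1, Reg4 at 20.9 and Lyz1 at 0.908. Tff3 is the trefoil peptide and Agr2 the disulfide isomerase that goblet cells use to make mucus. In the 70 and 74 wells that were high for none of these genes and had no tuft list sum of 10 or more, Muc2 had a median of 0 and reached at most 4.11 and 6.11.

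The single Chgb-high well, well 16 of plate 2, held 246 counts of Chgb among 4372, a level of 563, with Chga at 249, Tac1, the precursor of substance P, at 98.4 and Tph1, the enzyme that starts serotonin synthesis, at 32.0. Lyz1, Muc2, Reg4 and Lgr5 were at 0 in it. By the whole enteroendocrine list, 3 more wells of plate 2 had a summed level of 10 or more, a rule applied after the values were seen. So did well 75 of plate 1, high for Lyz1, Muc2 and Reg4, with a sum of 12.9 and Sct at 12.5. In plate 2, well 81 had a sum of 566.5, with Gcg, the precursor of glucagon-like peptides, at 321.8 (509 counts) and Pyy, the peptide YY gene, at 161.9. Well 73 had a sum of 164.8, with Pyy at 54.7 and Sct at 25.1, and well 1 a sum of 103, with Ghrl, the ghrelin gene, at 83.7. These 3 wells were low in Chgb and therefore count among the wells high for none of Lyz1, Muc2 and Chgb. Elsewhere Chgb was counted in 14 wells of plate 2 and 1 of plate 1, at no more than 5.32.

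**Figure D5:**
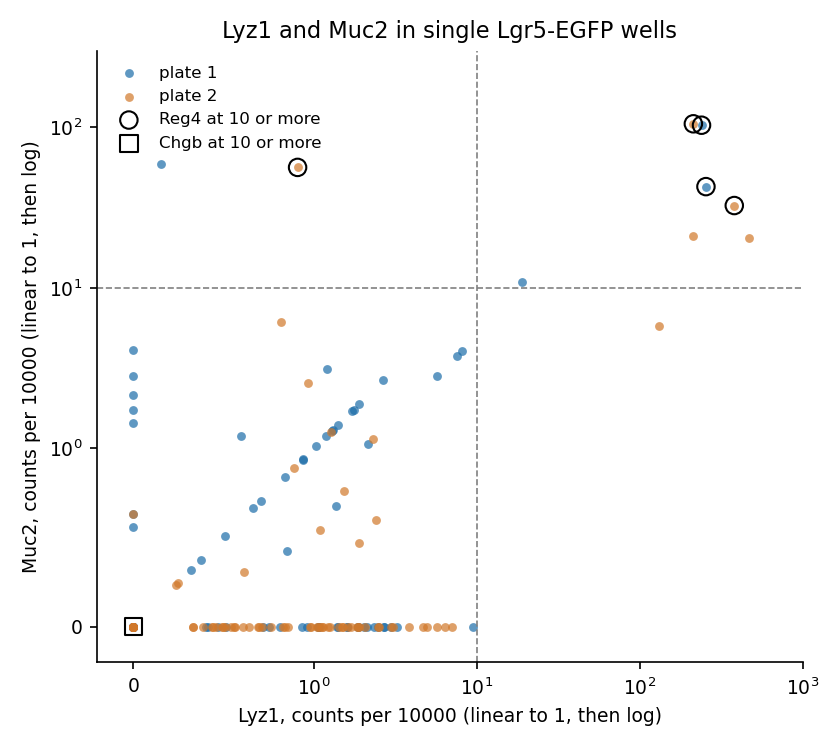
Muc2 level (y axis) against Lyz1 level (x axis) in every kept well, both linear up to 1 and logarithmic above, plate 1 in blue and plate 2 in orange, with circles around wells with Reg4 at 10 or more and a square around the Chgb-high well. Most high wells lie in the upper right, past 10 for both genes (grey lines), and 2 wells have Muc2 above 50 with Lyz1 under 1.

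Stem cell genes had lower medians in the secretory wells. In the 4 and 7 wells high for Lyz1, Muc2 or Chgb the median Lgr5 was 1.14 and 0.442, against 1.97 and 1.23 in the wells high for none, and median Clca4 was 3.74 and 2.63 against 15.5 and 10.4. Slc12a2 was at 3.34 and 2.72 against 9.12 and 6.40, and the ranges overlapped for each. Lgr5 was counted in 10 of the 11, in 6 of them by 1 count, and the wells not kept had 3 Lgr5 counts in 13250 (2.26 per 10000). These wells were also deeper, with a median of 25366 and 17499 counts against 9320.5 and 12704.5, and held 184 and 187 counts per spike-in count against 93.5 and 92.0, and whether they held more than 1 cell was not tested, as no doublet caller was run.

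Low counts of the same genes lay across the plates. Lyz1 was counted in 71.4% of the 70 wells of plate 1 and 79.7% of the 74 of plate 2 that were high for nothing, at medians of 0.890 and 0.821, and in the wells below 1500 counts it had 12 of 13250 counts (9.06 per 10000). In the 70 and 74 kept wells Defa24 had 1.39 and 1.93 counts per Lyz1 count, against 1.84 and 2.00 in the secretory wells, where 2 Defa24 values of plate 2 and 1 AY761184 value of plate 1 were saturated, so that those ratios are lower bounds. For AY761184 the ratios were 0.847 and 1.63 against 1.28 and 1.60, and for Spink4 2.19 and 1.79 against 1.98 and 0.411, so that not all genes kept the same ratio to Lyz1. Low counts were therefore not read as expression, and their source was not tested. Of all Lyz1 counts 94.6% and 96.6%, and of all Muc2 counts 94.0% and 90.8%, lay in the 4 and 7 high wells, which held 13.99% and 9.32% of all counts.

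By variance over mean of counts thinned to 3000, the most variable genes of both plates included AY761184, Defa24, Lyz1, Defa20, Spink4, Defa17, Gm21002, Defa5, Muc2, Tff3, Reg4, Gm15315, Agr2 and Mmp7. The smaller of the plate values was 139 for AY761184, 116 for Defa24 and 62.1 for Lyz1. Without the secretory wells, which were chosen by Lyz1, Muc2 and Chgb, the values were 0.954 and 0.779 for AY761184, near the value of 1 that counting alone gives, and the choice itself lowers them for the genes that made it. Tff3 kept 11.01 and 16.03 and Agr2 3.35 and 6.04. Lgr5 ranked at 286, with 1.20 and 1.45. Alpha-defensin genes are near-identical copies, so how counts fall among them is uncertain.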

How the data were processed

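Single sorted cells were profiled by CEL-seq. The values deposited by the authors are estimated counts, transcripts per gene and well made by counting molecular barcodes and correcting for collisions among 256 molecular barcodes. Inverting that correction gave whole numbers for 715470 of 715474 values (tolerance 1e-06), and the other 4 were saturated. Reads were mapped with BWA 0.6.2-r126 to mm10, per the submitters' processing notes. Values were rounded to whole numbers (at most 0.495 was added or removed). Gene names were used as deposited.

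Spike-in and dsRed rows were left out of the totals of 23538 genes, and wells under 1500 counts were left out. The 192 columns of 2 tables that could not be tied to these samples were not used. Wells are not replicates: counts were summed per plate and class, and edgeR 4.0.16 (quasi-likelihood, TMM, filter on low counts, Benjamini-Hochberg) compared the sums with the plate as a block, because both classes came from the same plate. This leaves 1 residual degree of freedom. The p-values rest only on how the class difference varied between these plates, with information on spread shared across genes. Genes that chose a class were not tested. DESeq2 1.42.0, R 4.3.3, Python 3.11.15, numpy 2.4.6, pandas 2.3.3 and scipy 1.17.1 were used, and scripts were tested on simulated data. Other settings were no low-count filter, no block, thinning, deeper wells, other limits on classes, and leaving out secretory wells, alone or with the tuft and enteroendocrine wells (the last added after seeing the data).

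The genes named were the 10 with the largest fold change in each direction among those called, in the same direction in both plates and at 50 CPM or more, with the markers Lgr5, Slc12a2, Clca4 and Smoc2, the secretory genes Lyz1, Muc2, Chgb and Reg4, the 12 genes most positively and 8 most negatively related to Lgr5, the 15 most variable genes (1 is not reported here) and up to 4 genes of each list by level. The members and lists were chosen with earlier results of these data known. The limit of 12 G2/M genes, the abundant genes, the promoters and the wells high for Tff3, Sct or the enteroendocrine list were chosen after the values were seen.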

Additional observations from a re-analysis of the deposited data

How the results depend on the processing

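Counts of called genes moved with the settings. For the Lgr5 comparison (27 higher, 38 lower) the higher count was 0 with DESeq2 (17 genes at an unadjusted p under 0.05), 1 with no replicate block, 7 in wells with at least 3000 counts, 2 with thinning, 0 without the secretory wells (317 unadjusted) and 58 when only the upper and lower parts of a 3-way division by Lgr5 were compared. The lower count was 4 with DESeq2, 77 with no low-count filter, 3 with no replicate block, 1 without the secretory wells, 13 without these and the tuft and enteroendocrine wells (an alternative added after seeing the data) and 101 with the 3-way division. For the G2/M classes (160 higher, 177 lower) DESeq2 called 5 and 26, no filter 73 and 93, no replicate block 70 and 74 and thinning 20 and 43. A limit of 2 genes called 0 and 0 with edgeR (224 and 237 unadjusted), a limit of 5 genes 132 and 84, and a limit of 12 genes 200 and 174. Without the secretory wells 115 and 47 were called, and without the tuft and enteroendocrine wells as well 104 and 35. A minimum of 3000 counts leaves the G2/M fit as it is, since its classes already need them. The cause was not tested.

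The share of wells with G2/M transcripts was 85.7% at 2 genes, 58.4% at 5, 36.1% at 12 and 55.4% with thinning to 1500. The mean Muc2-high share was 6.83% at 5 per 10000, 4.98% at 20 and 6.11% in wells with at least 3000 counts, and the Reg4-high share was 4.31% at 5 per 10000. Genes related to Lgr5 in both plates numbered 16 positive and 8 negative with thinning, and 37 negative without the secretory wells. Leaving out 1 plate gave G2/M shares from 73.2 to 76.3%, Lyz1 from 4.00 to 5.95%, Muc2 from 5.33 to 5.95%, Chgb from 0 to 1.19% and Reg4 from 2.67 to 3.57%, and allows no test of the gene counts, since no residual degrees of freedom remain.

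Some log2 fold changes reversed. Without the secretory wells Defa17 was 0.28 and Lyz1 0.37 for Lgr5, and Defa5 0.19, Mptx2 0.27, Lyz1 0.10, Muc2 0.55 and Reg4 0.46 for G2/M. Without the tuft and enteroendocrine wells as well these were 0.29 and 0.42, and 0.24, 0.14, 0.11, 0.59 and 0.58. Lyz1 was 0.55 for Lgr5 without plate 2 and -5.27 without plate 1. For G2/M Clca4 was 0.13 and Smoc2 0.14 at 12 genes, and Clca4 was 0.28 without plate 1 and -0.16 without plate 2. A typical well held few counts of Lgr5, and the part of depth in the calls between the Lgr5 classes was not tested.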

Other observations

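Other wells stood apart by genes outside those looked for, and they were picked after their values had been seen, so the values are descriptions. Tff3, the trefoil peptide of goblet cells, was at 18.8, 46.5 and 48.9 in 3 wells of plate 1 (28, 34 and 41) and at 44.9, 18.7, 63.0 and 13.1 in 4 wells of plate 2 (14, 22, 37 and 90), none of them high for Lyz1, Muc2 or Chgb. Muc2 was at most 6.11 there. Dll1, a Notch ligand of early secretory cells, had medians of 5.01 and 3.08 in these wells against 0 in the wells of neither kind, and Fcgbp, a mucus protein gene, had 10.6 and 3.76 against 0. Tff3 ranked as the most variable gene once the secretory wells were left out.

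Tuft list genes, of a chemosensory cell type, summed to 31.8 in well 11 of plate 1 and to 120.3, 85.5 and 78.5 in wells 26, 43 and 58 of plate 2. Rgs13 gave 6, 4, 21 and 17 counts in these wells. Sct, the hormone secretin, was at 25.1 and 24.0 in wells 73 and 81 of plate 2, the latter of which held more Gcg and Pyy than Sct. In well 75 of plate 1, a Lyz1-high well, Sct was at 12.5 (30 counts).

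Reg3b and Reg3g, antimicrobial lectins, were abundant in most wells, with medians of 53.3 and 40.5 for Reg3b and 49.3 and 44.4 for Reg3g. They followed each other (rho 0.597 and 0.591) but not Lgr5 (0.021 and -0.027 for Reg3b). Dmbt1 followed Reg3b with a rho of 0.307 and 0.614.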
